A study of Mus musculus with 14 samples.

Results

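TAZ, which is encoded by Wwtr1, is a transcriptional co-activator held in check by the Hippo pathway. In that pathway the kinases encoded by Stk3 and Stk4, with the scaffold Sav1, activate Lats1 and Lats2, which phosphorylate TAZ and its paralogue Yap1 and so keep both out of the nucleus. Unphosphorylated TAZ and YAP bind the TEAD transcription factors and switch on genes such as Ccn1, Ccn2 and Ankrd1, and TAZ is best known in breast carcinoma for effects on growth and cell state.

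Tumours grown from TAZ-depleted 4T1 cells were compared here with the same kind of cells kept in culture, to describe which genes changed in TAZ-depleted material between a dish and a mouse, and whether Wwtr1 mRNA came back in vivo. The material was 7 of the 14 bulk RNA-seq libraries of shRNA lines in the series, namely 4 shTAZ tumours and 3 shTAZ cell cultures, chosen by the names of the samples alone. The remaining 7 libraries, from 4 tumours and 3 cultures with a scrambled hairpin (shC), stand beside them where stated. 4T1 is a mammary carcinoma line from BALB/c mice, and the shTAZ and shC lines were pools of cells, not clones, that carried a lentiviral hairpin induced by doxycycline. Cultures received doxycycline for 48 h. Tumours formed in the mammary fat pad of female BALB/c mice, 8 weeks old, which ate doxycycline chow, and were taken 6 weeks after injection. Both hairpins were thus under doxycycline in every group, although the sample labels name no treatment, and a tumour library holds host cells as well as 4T1 cells. The labels do not say whether the replicate cultures were grown separately, so p values measure the spread between these libraries.

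The shTAZ hairpin is shown because all 7 shTAZ libraries carry it. Its listed strand matches the opposite strand of a single place in the mouse transcripts of GENCODE M21, in the coding part of exon 3 of 7 of Wwtr1 (GRCm38 chr3:57501788-57501806, minus strand, within the gene at chr3:57455649-57575910).
shTAZ as listed: gacgggtggaggttcacat
Wwtr1 site: atgtgaacctccacccgtc
The 19 bases lie 3953 bases before the 3′ end of the longer of the 2 matched transcripts, and the libraries were made with a 3′ protocol, so the counts were read from another part of the mRNA than the one the hairpin pairs with. The scrambled hairpin, shC, matched no transcript.

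The shTAZ tumours had 1659736 to 3179767 counts each and the shTAZ cultures 2243071 to 7959163. Tumours and cultures came in separate tables of 13414 and 11793 genes, 11150 genes were in both after older symbols were matched, and these held nearly all counts. Tissue, table, library run and the annotation behind each table coincide and cannot be told apart. Differences between libraries also touch the results. shTAZ cells 3 stood apart from the other cultures, with an SD of log2 differences over 2427 well-counted genes of 0.656 and 0.608 against 0.438 between cultures 1 and 2, while tumours differed by 0.325 to 0.409. In addition, shTAZ tumours 3 and 4 (code FM) held skin transcripts that tumours 1 and 2 (code FG) lacked. For many lists, counts of genes are therefore also given with the FG tumours only.

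Of 8801 genes tested with edgeR's quasi-likelihood test, 2840 (32.3%) passed an adjusted p of 0.05, with 1463 (16.6%) higher and 1377 (15.6%) lower in tumours. The changes upward were the larger ones, since 387 of the higher genes and 94 of the lower ones moved by more than 3 on the log2 scale. The median log2 fold change of all genes tested was -0.05. With the FG tumours only, 918 genes were higher and 510 lower. Transcripts of macrophages, antigen-presenting cells, fibroblasts and vessels led the higher genes, and genes of the amino acid response, of serine synthesis and of mitosis the lower ones, as the plot of the lists shows.

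**Figure D1:**
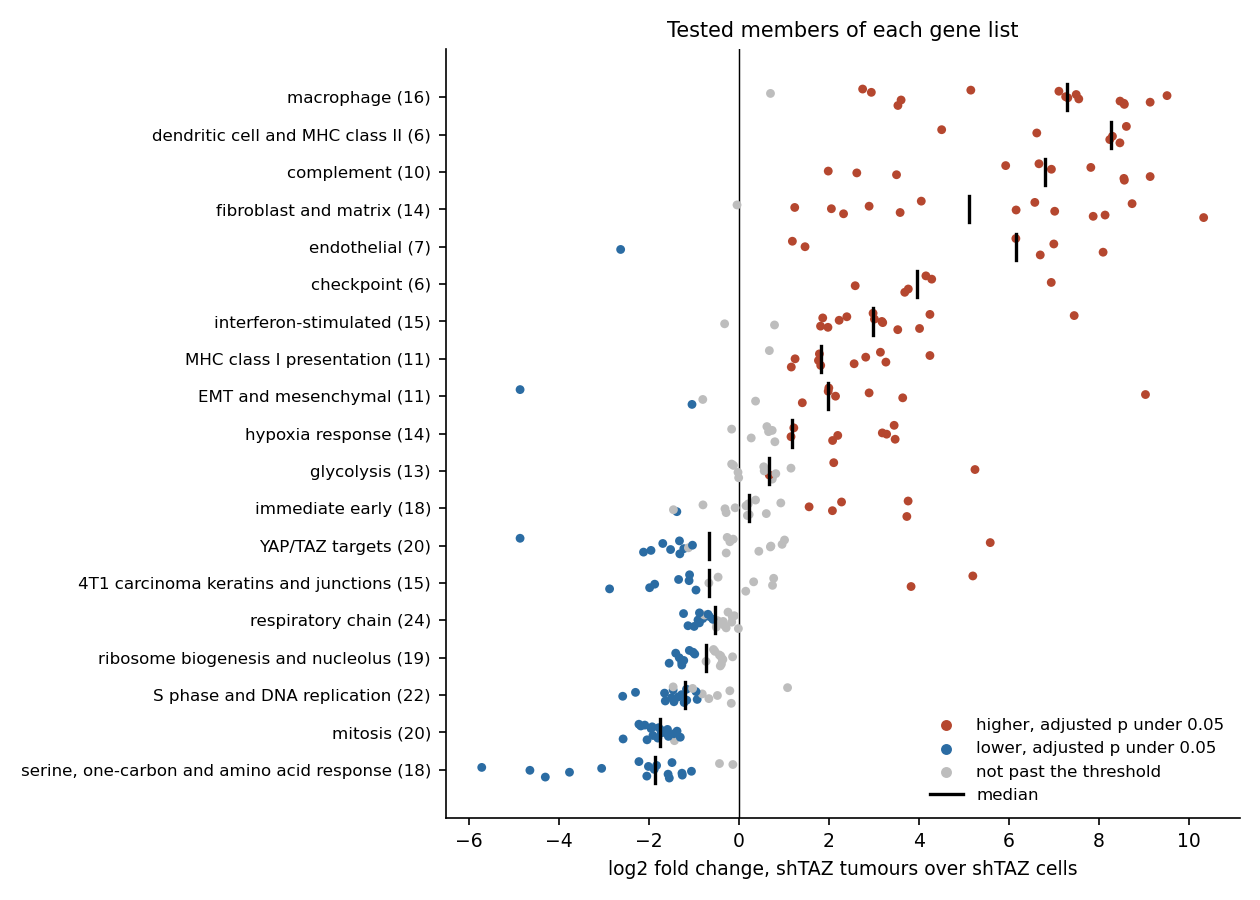
Log2 fold changes of shTAZ tumours over shTAZ cells (x axis) for the tested members of 19 gene lists (y axis, number tested in brackets), with members past an adjusted p of 0.05 in red (higher) or blue (lower), others in grey and the list median as a black line. The macrophage list has its median at 7.29 and the amino acid response list at -1.86.

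Wwtr1 mRNA was higher in the shTAZ tumours than in the shTAZ cultures but did not reach the level of the control line. Levels are given as CPM, the counts of a gene relative to the total of its library (parts per mega-count), scaled by TMM over the 7 libraries. Wwtr1 stood at 21.3, 12.9, 17.1 and 24.9 in the 4 tumours and at 8.10, 10.4 and 6.13 in the 3 cultures. Every tumour was above every culture, as was the case for 20.2% of all genes tested, while groups failed to overlap in either direction for 38.2%. The log2 fold change was 1.25 (SE 0.35, adjusted p = 0.0164, edgeR), and the exact two-sided permutation test on the same 7 libraries gave p = 0.0571, where the smallest value that 35 splits can give is 0.0286. The call rested on few libraries, since without shTAZ tumour 1, tumour 4 or cells 3 the adjusted p was 0.0510, 0.0606 and 0.0529 at log2 fold changes of 1.19, 1.10 and 1.04. It was also lost with FG tumours only (1.11, adjusted p = 0.131) and with FM tumours only (1.39, adjusted p = 0.0509).

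Beside the control line, and on a CPM scale common to all 14 libraries, Wwtr1 averaged 19.4 ± 5.44 (SD, n = 4) in shTAZ tumours and 8.26 ± 2.21 (SD, n = 3) in shTAZ cells, against 39.2 ± 15.1 (SD, n = 4) in shC tumours and 32.4 ± 7.52 (SD, n = 3) in shC cells. The highest shTAZ tumour, at 25.6, was below the lowest shC library, at 26.4. The difference of shTAZ from shC was thus -1.03 on the log2 scale in tumours and further from 0 by 0.98 in culture. This interaction (SE 0.47) had an unadjusted p of 0.0541 and an adjusted p near 1 in the edgeR interaction test, so a smaller knockdown in vivo was not established. Stromal transcripts rose in the same tumours (among genes listed in both tables, 17 fibroblast and matrix genes held 0.747% to 0.972% of counts in shTAZ tumours and 0.132% to 0.171% in shTAZ cells, and 7 endothelial genes 0.0683% to 0.106% and 0.0225% to 0.0292%), and their part in the Wwtr1 difference was not tested. In bulk RNA, fewer cells of a type and less RNA per cell cannot be told apart, here and in all results that follow.

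**Figure D2:**
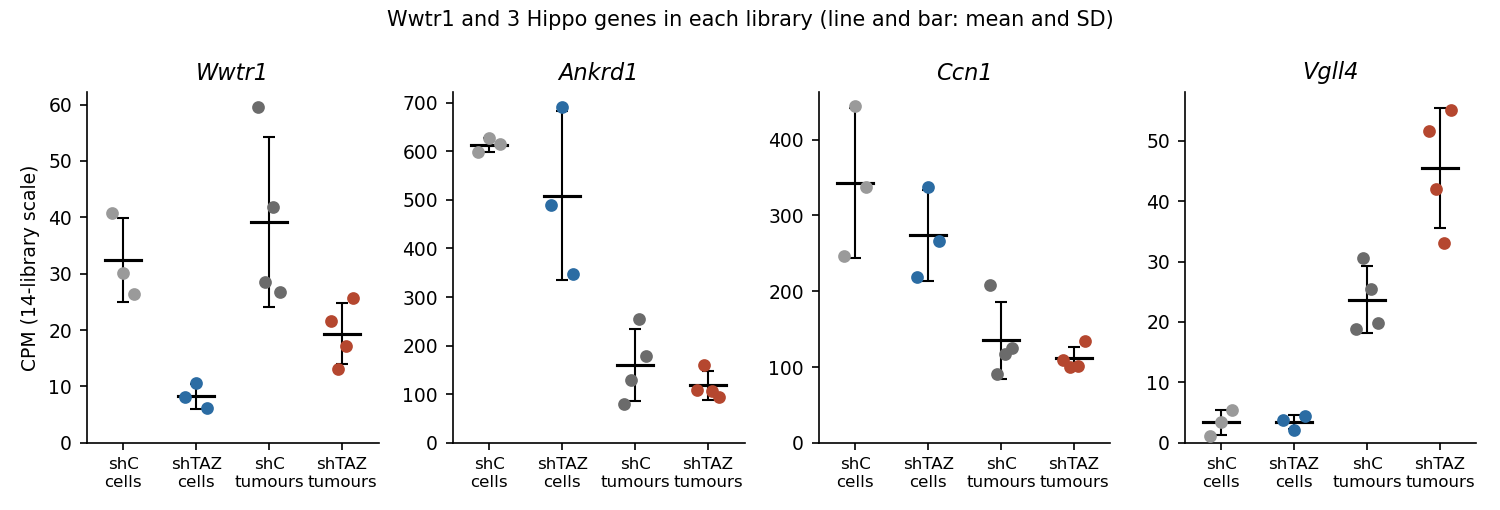
CPM on the 14-library scale (y axes) of Wwtr1, Ankrd1, Ccn1 and Vgll4 in the 4 groups (x axes), 1 point per library, with mean and SD in black. Wwtr1 in shTAZ tumours lies between shTAZ cells and both shC groups, Ankrd1 and Ccn1 are lower in tumours than in cells of either line, and Vgll4 is higher.

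Hippo pathway genes did not move in 1 direction. Of 15 tested, 3 were higher (Wwtr1, Tead2 and Vgll4) and 1 was lower (Amotl2), and the median was -0.13. Among all genes tested, 16.6% were called higher and 15.6% lower. Tead2, a TEAD factor that TAZ binds, read 278, 207, 185 and 266 CPM in tumours and 98.1, 93.5 and 136 in cultures, so that the log2 fold change was 1.10 (SE 0.23, adjusted p = 0.00342). Vgll4, which competes with TAZ and YAP for TEAD factors, read 50.9, 41.6, 32.9 and 53.6 CPM in tumours and 3.81, 2.09 and 4.45 in cultures, a difference of 3.62 (SE 0.35). Every tumour was above every culture for both genes, as for 20.2% of all genes tested. Yap1 was at 96.8 to 122 CPM in tumours and 133 to 206 in cultures, lower in every tumour but not past the threshold (log2 fold change -0.55, adjusted p = 0.0690). The kinases Lats1 (-0.36), Lats2 (-0.20) and Stk3 (-0.78) and the factor Tead3 (0.35) did not pass.

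Known targets of YAP and TAZ leaned the other way from Wwtr1. Of 20 tested, 9 fell and 1 rose, against 15.6% of all genes called lower and 16.6% called higher. The median log2 fold change was -0.66, and with FG tumours only 6 fell and 1 rose. The rise was 2 genes without tumour 2, 3 or 4. Ankrd1, a muscle-type ankyrin repeat protein and one of the targets most used as a readout, was at 107, 159, 107 and 92.6 CPM in tumours and 489.6, 684 and 346 in cultures (log2 fold change -2.12, SE 0.27, adjusted p = 6.67e-05). Ccn1, a secreted matricellular protein, was at 108, 98.9, 101 and 130.4 CPM in tumours and 219, 334 and 266 in cultures (-1.31, SE 0.21, adjusted p = 0.000497). All tumours were below all cultures for both genes. Axl, a receptor tyrosine kinase (-1.23), Myof, a membrane repair protein (-1.32), and Amotl2, an angiomotin that binds YAP (-1.96), fell likewise.

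Not every target followed. Ccn2, the target that encodes connective tissue growth factor, overlapped between groups, at 55.1, 47.6, 27.4 and 30.3 CPM in tumours and 30.0, 83.5 and 35.0 in cultures (-0.28, adjusted p = 0.594). Igfbp3, a secreted binding protein of insulin-like growth factors that stromal cells also make, was the target that rose, from 3.25 to 7.10 CPM in cultures to 157 to 418 in tumours (5.59, SE 0.47). Il23a, a subunit of interleukin 23, overlapped, at 9.14 to 17.9 CPM in tumours and 9.05 to 32.2 in cultures (-0.58, adjusted p = 0.286). Ccn4 was in both tables but too low to test, and Foxp3 was listed in the tumour table alone.

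Genes of myeloid cells rose steeply. Of 16 macrophage genes tested, 15 rose, and of 6 genes of dendritic cells and MHC class II all 6 did, with medians of 7.29 and 8.27. With FG tumours only these counts were 15 of 16 and 6 of 6. C1qa, a C1q complement chain that tissue macrophages make, read 2605, 3285, 3858 and 4778 CPM in tumours and 13.3, 11.7 and 5.29 in cultures, and the log2 fold change was 8.57 (SE 0.44, adjusted p = 2.88e-08). H2-Aa, an MHC class II chain that presents antigen to CD4 T cells, read 3579, 4229, 6811 and 2529.7 CPM and 13.8, 12.9 and 10.1 (8.47, SE 0.44). Its partner chains H2-Ab1 (8.24) and H2-Eb1 (8.30) and the invariant chain Cd74 (6.62) moved with it. For each of these genes the lowest tumour was far above the highest culture.

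Other macrophage products followed. Apoe, a lipid carrier, was at 5494, 7521, 7877 and 8641 CPM in tumours and 50.5, 55.5 and 34.5 in cultures (7.31, SE 0.32). Lyz2, lysozyme, rose by 7.55 and Ctss, a protease of antigen-presenting cells, by 7.50. Spp1, osteopontin, which carcinoma cells make as well, started from 343 to 387 CPM in cultures and reached 1360.4 to 4295 in tumours (2.75, SE 0.38). All 10 complement genes tested rose (median 6.81), and 9 of 10 did with FG tumours only. Among the 10 were C1qb (8.56), C1qc (9.14) and Cfb, factor B of the alternative pathway (7.82). The 17 macrophage genes listed in both tables held 1.76% to 2.60% of all counts in shTAZ tumours and 0.0568% to 0.0648% in shTAZ cells. The share in cultures was thus not 0, but Spp1 alone, at 343 to 387 CPM, made up much of it.

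Lymphocytes and neutrophils could hardly be compared, because 15 of 22 T and NK cell genes and 12 of 17 neutrophil genes were listed in the tumour table alone. Lck, a kinase of T cells, was the T cell gene tested and overlapped between groups (1.41, adjusted p = 0.0602), although it passed without shTAZ cells 3 (2.80, adjusted p = 0.00157). S100a8, a calcium-binding protein of neutrophils, was uneven, at 82.0, 3.63, 9.14 and 95.9 CPM in tumours and 0.953, 0 and 0.120 in cultures (7.41, SE 1.37), and it had too few counts to be tested without tumour 1, 3 or 4. The T and NK list held 0.00697% to 0.0105% of counts in shTAZ tumours.

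Stromal genes rose as well. Of 14 fibroblast and matrix genes tested, 13 rose (median 5.11), with all tumours or FG tumours only. Col1a1, the main chain of type I collagen, was at 947, 2453, 1504 and 1909.6 CPM in tumours and 0.953, 2.92 and 0.722 in cultures, the largest log2 fold change among the most abundant higher genes (10.33, SE 0.57). Fn1, fibronectin, already stood at 812 to 1147 CPM in cultures and rose to 2584 to 5181 (2.05, SE 0.27). Of 7 endothelial genes, 6 rose and 1 fell. Cdh5, the cadherin of endothelial junctions, went from 0 to 0.953 CPM in cultures to 50.0 to 151 in tumours (8.09, SE 0.62), and Plvap, a protein of fenestrated endothelium, rose by 6.15. The gene that fell was Flt1, a VEGF receptor, at 5.25 to 12.2 CPM in tumours and 36.6 to 67.6 in cultures (-2.63, SE 0.34). Des, desmin of muscle and pericytes, had no count in any culture and was at least 58.1-fold higher in tumours, counted against a floor of 3 counts over the cultures together.

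Outside these lists, H19, an imprinted long non-coding RNA, was at 1198, 2866, 646 and 4916 CPM in tumours and 14.8, 21.7 and 7.58 in cultures (7.41, SE 0.77, adjusted p = 1.25e-05). It kept tumours and cultures apart, with a wide spread among the tumours.

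Antigen presentation by MHC class I and the interferon response rose from a measurable level in culture. Of 11 class I genes tested 10 rose (median 1.82), and of 15 interferon-stimulated genes 13 did (median 2.98), with 10 and 13 when FG tumours only were used. H2-D1, a class I heavy chain, was at 6861, 5689.9, 7295 and 7478 CPM in tumours and 1489, 1577 and 2749 in cultures (1.82, SE 0.26, adjusted p = 0.000175). H2-K1, the other classical heavy chain, rose by 2.56, Psmb8, an immunoproteasome subunit, by 2.82, and Tapbp, which loads peptide onto class I, by 1.25. Tap1, a peptide transporter, went from 14.2 to 56.2 CPM in cultures to 283 to 394 in tumours (3.27). Every tumour was above every culture for these 5 genes, as for 20.2% of all genes tested. Immune cells carry class I genes too, and the macrophage list given above moved with them, so their part was not tested.

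Of the interferon-stimulated genes, Irf1, a transcription factor, was the most even, at 506, 541, 453 and 445 CPM in tumours and 125, 118 and 127 in cultures (1.98, SE 0.20, adjusted p = 9.91e-06). Ifitm3, an antiviral membrane protein, read 964, 692, 434 and 655 CPM and 146, 96.5 and 148, which is 5.27-fold higher. Isg15, a ubiquitin-like modifier, read 376, 271, 134 and 296 CPM and 60.0, 67.2 and 101 (1.81, SE 0.33), and Bst2, tetherin, rose by 1.86. In each case the lowest tumour exceeded the highest culture, as for 20.2% of all genes tested.

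Promoters are shown for members that moved together and carry the matching response element. The window was 250 bases before and 50 after each RefSeq gene start (GRCm38.p6), and 11 of the interferon-stimulated genes tested had one. The interferon-stimulated response element, searched as GAAANNGAAA on both strands with overlapping matches allowed, was found in 7 of these 11 windows and in 3.62% of the 7107 windows of all genes tested. The 250 bases before the start of Isg15 (chr4:156200819-156201068, minus strand) and of Ifit3, an interferon-induced tetratricopeptide repeat protein that rose by 3.20 (chr19:34583279-34583528, plus strand), are printed with matches in capitals, which on the opposite strand read TTTCNNTTTC.
Isg15: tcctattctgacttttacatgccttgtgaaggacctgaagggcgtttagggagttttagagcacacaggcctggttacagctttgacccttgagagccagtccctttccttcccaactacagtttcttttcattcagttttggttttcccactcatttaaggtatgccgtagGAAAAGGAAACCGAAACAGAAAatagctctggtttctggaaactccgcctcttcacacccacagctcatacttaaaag
Ifit3: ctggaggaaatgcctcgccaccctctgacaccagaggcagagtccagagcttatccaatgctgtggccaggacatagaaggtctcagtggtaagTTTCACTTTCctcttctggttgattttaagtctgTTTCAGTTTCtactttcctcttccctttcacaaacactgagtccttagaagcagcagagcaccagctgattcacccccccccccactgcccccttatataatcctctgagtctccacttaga
Ifit1, whose window also holds the element, did not pass (0.79), so a match did not go with a call in every gene.

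Chemokines and checkpoint genes rose in part. Of 11 chemokine genes tested 7 rose (median 2.03), 5 with FG tumours only. Cxcl14, a chemokine of epithelia and fibroblasts, was at 109, 376, 219 and 236 CPM in tumours and 0.953, 2.09 and 0.481 in cultures (7.93, SE 0.59). Cxcl16, a ligand for T cells, rose by 0.97. Cxcl1, which attracts neutrophils, was at 213, 2.02, 8.53 and 24.1 CPM in tumours and 30.5, 56.8 and 77.1 in cultures and did not pass (0.19, adjusted p = 0.897). Tumour 1 decided its direction, since without it Cxcl1 was lower in tumours (-2.24, adjusted p = 0.0211). All 6 genes tested of the checkpoint list rose (median 3.96), but the list is broader than checkpoint receptors and ligands. It holds Arg1, an arginase of suppressive myeloid cells (6.94), Nos2, inducible nitric oxide synthase (4.28), and Tnfrsf9, a T cell co-stimulator (4.16). Lgals9, a galectin (2.58), Cd274 and Lag3 were the others that rose. Pdcd1, Ctla4, Cd80, Cd86 and Ido1 were listed in the tumour table alone, and Havcr2 and Tigit had too few counts to be tested.

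The amino acid response list had the lowest median of all lists. Under amino acid shortage or endoplasmic reticulum stress the transcription factor ATF4 switches on genes for amino acid import and synthesis, and serine made in this way feeds one-carbon metabolism. Of 18 genes tested 16 fell and none rose, with a median of -1.86, against 15.6% of all genes called lower. With FG tumours only 11 fell (median -1.79), and without shTAZ cells 3, which had the highest levels of several of these genes, 15 of 18 fell (median -1.53). Chac1, an enzyme that degrades glutathione and a standard ATF4 target, was at 6.09, 4.84, 6.09 and 7.89 CPM in tumours and 252, 272 and 462 in cultures (-5.72, SE 0.30, adjusted p = 3.51e-08). Asns, asparagine synthetase, was at 12.5, 19.4, 15.2 and 11.6 CPM in tumours and 237, 262 and 599 in cultures (-4.65, SE 0.36). Tumours and cultures were more than a factor of 10 apart for both genes.

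Serine and one-carbon enzymes fell with them. Mthfd2, a mitochondrial folate enzyme, read 23.5, 25.4, 23.2 and 19.1 CPM in tumours and 231, 339 and 361 in cultures (-3.77, SE 0.23, adjusted p = 1.27e-07). Psat1, an enzyme of serine synthesis, fell from 158 to 203 CPM in cultures to 3.32 to 15.3 in tumours (-4.30, SE 0.36). Shmt2, a mitochondrial serine hydroxymethyltransferase, fell by less (-1.58). The regulators fell too. Atf4 itself read 283, 222, 307 and 334 CPM in tumours and 797, 1089 and 1285 in cultures (-1.88, SE 0.23, adjusted p = 5.15e-05), Atf5 fell by 1.83, and so did Trib3, a pseudokinase induced by ATF4 (-3.05), from 110.5, 216 and 816 CPM to 69.5, 32.3, 26.8 and 54.0. The amino acid transporter subunit Slc3a2, at 284 to 470.4 CPM in tumours and 303 to 716 in cultures, did not pass (-0.43).

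**Figure D3:**
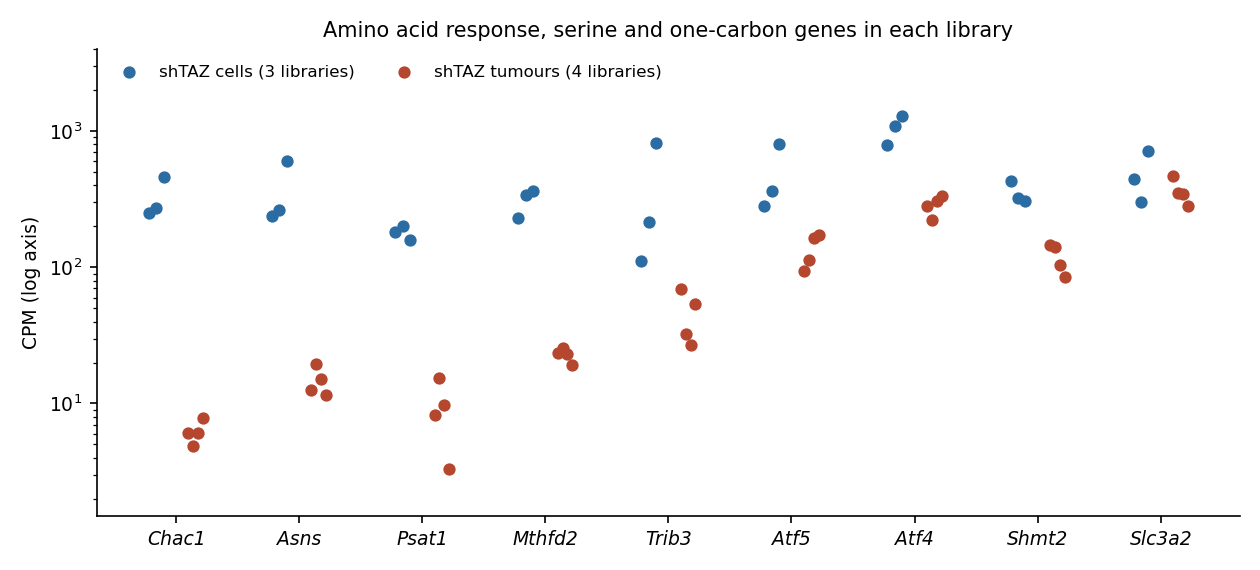
CPM on a log axis (y) of 9 amino acid response, serine and one-carbon genes (x) in the 3 shTAZ cultures (blue) and the 4 shTAZ tumours (red), 1 point per library. All tumours lie below all cultures for each gene but Slc3a2, and shTAZ cells 3 is the highest culture for Trib3 at 816 CPM.

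The element that ATF4 binds with C/EBP factors was searched as TGATGNAA on both strands. It lay in 3 of the 16 promoter windows of this list, those of Asns, Chac1 and Trib3, and in 2.63% of the windows of all genes tested. For Asns (chr6:7693210-7693459, minus strand) and Chac1 (chr2:119350992-119351241, plus strand), which fell most, it stood in the 250 bases before the start, with the match in capitals, in Chac1 on the opposite strand as TTNCATCA.
Asns: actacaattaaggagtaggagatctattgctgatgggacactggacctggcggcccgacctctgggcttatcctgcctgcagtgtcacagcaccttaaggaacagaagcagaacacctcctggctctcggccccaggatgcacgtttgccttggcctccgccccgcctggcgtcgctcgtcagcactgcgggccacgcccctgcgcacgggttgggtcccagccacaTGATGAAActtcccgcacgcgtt
Chac1: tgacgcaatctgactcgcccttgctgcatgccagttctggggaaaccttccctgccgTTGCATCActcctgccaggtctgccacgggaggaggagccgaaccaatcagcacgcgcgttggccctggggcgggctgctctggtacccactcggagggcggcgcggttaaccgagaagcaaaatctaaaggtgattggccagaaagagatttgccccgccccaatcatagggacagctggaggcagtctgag
For Trib3 the match stood after the start. Psat1 and Mthfd2 fell further than Trib3 with no match in their windows.

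Cell cycle genes were lower in tumours. Of 20 mitotic genes tested 19 fell (median -1.75), and of 22 genes of S phase and DNA replication 14 did (median -1.19). Among all genes tested, 15.6% were called lower. With FG tumours only, which are fewer, 6 of 20 and 1 of 22 fell, at medians of -1.47 and -0.94. That fit called 510 genes lower in all, against 1377 with all tumours. The S phase calls were thus mostly not kept with these tumours. The S phase count was 7, 8 or 6 without tumour 1, 3 or 4 and 6 or 4 without shTAZ cells 1 or 2. Ube2c, a ubiquitin-conjugating enzyme of the anaphase-promoting complex, was at 129, 306, 148 and 129 CPM in tumours and 962, 955 and 509 in cultures (-2.18, SE 0.34, adjusted p = 0.000359). Top2a, topoisomerase of dividing cells, read 86.8, 179, 93.8 and 61.1 CPM and 359.6, 564 and 181 (-1.80, SE 0.39). Tumours stayed below cultures, but Top2a in tumour 2 came close to shTAZ cells 3. Ccnb2, a mitotic cyclin, fell by 2.04, and Plk1, a mitotic kinase, by 1.57 with overlapping groups, a call lost without shTAZ cells 1 (adjusted p = 0.0537) or cells 2 (0.0573).

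Among replication genes, Cdt1, the licensing factor, was clearest, at 82.6, 101, 73.7 and 54.0 CPM in tumours and 401, 423 and 327 in cultures (-2.30, SE 0.23). Tk1, a thymidine kinase of dividing cells, fell with overlapping groups (-1.50), and its call was lost without tumour 4 (adjusted p = 0.0529), shTAZ cells 1 (0.0671) or shTAZ cells 2 (0.0799). Of 9 inhibitors and D cyclins 2 rose and 2 fell, near the 16.6% and 15.6% of all genes called higher and lower. Ccnd3 (0.35) and Gadd45a (1.40, adjusted p = 0.0729) did not pass, and Cdkn1a, which encodes the p21 inhibitor, rose from 17.9 to 25.7 CPM in cultures to 46.4 to 96.5 in tumours (1.57, SE 0.31). Btg2, an antiproliferative gene, rose as well (3.76), Ccnd2, a D cyclin, fell (-1.50), and Cdkn2d, an inhibitor of the kinases that D cyclins activate, fell with overlapping groups (-0.79, adjusted p = 0.0410), a call lost without tumour 1, 3 or 4 or shTAZ cells 1 or 2 (adjusted p from 0.0916 to 0.138).

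Growth metabolism shifted more gently. Of 24 respiratory chain genes tested 11 fell and none rose (median -0.54), 4 with FG tumours only and 6 or 7 without tumour 1, 2 or 4 or shTAZ cells 2. Atp5b, a subunit of ATP synthase, was at 1077, 1334, 1304 and 1311 CPM in tumours and 2903, 3021 and 2928 in cultures (-1.23, SE 0.19, adjusted p = 0.000320), and Cox4i1 fell likewise (-0.80). Of 19 ribosome biogenesis genes 9 fell (median -0.73), among them Gar1 (-1.41), Nop58 (-1.27) and Nhp2 (-1.02), all parts of the small nucleolar ribonucleoproteins, and 3 fell with FG tumours only. Of 25 proteins of the large ribosomal subunit 6 fell (median -0.28), not far from the 15.6% of all genes called lower. The count was 3 without shTAZ cells 2 and 2 with FG tumours only. Rpl14 (-1.17) and Rpl4 (-1.05) were among those that fell, while Rplp0 did not pass (-0.71, adjusted p = 0.0697).

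Most glycolysis genes did not pass. Of 13 genes 3 rose, with 9 of 13 above 0 and a median of 0.67, against 16.6% of all genes called higher. Among the risers was Gapdh (5.25), whose groups overlapped and whose counts are uncertain, as described further on. Pkm, pyruvate kinase and the most abundant gene of the list, overlapped between groups (-0.12). The count was 1 without tumour 1, 5 without tumour 2 and 0 without shTAZ cells 2. Hypoxia genes, induced by HIF factors at low oxygen, rose in part, 8 of 14 (median 1.19), 7 with FG tumours only. Adm, adrenomedullin, went from 3.33 to 4.45 CPM in cultures to 14.1 to 97.5 in tumours (3.47, SE 0.62), whereas Slc2a1 (0.74) and Ddit4 (0.66) did not pass. Cholesterol synthesis (2 of 19 lower, none higher) and fatty acid synthesis (2 of 14 lower, none higher) were at or below the share called lower among all genes, 15.6%, although 6 cholesterol genes fell without shTAZ cells 3.

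The identity of the carcinoma cells was checked on keratins. Krt8 was at 1020.1, 1125, 1017 and 872 CPM in tumours and 1519, 821 and 389 in cultures and did not pass (0.15), and Krt18, its partner in simple epithelia, was at 1767, 2285, 1972 and 1825 and at 4964, 4087 and 2365 (-0.96, SE 0.25, adjusted p = 0.0110). Both were abundant in all 7 libraries, as the 4T1 label requires. Krt7, a further simple keratin, fell by 1.99. Among all genes tested, 15.6% were called lower and 16.6% higher. Of 15 keratin and junction genes 7 fell and 2 rose (median -0.67), and with FG tumours only 5 fell and 3 rose. Only 4 fell without shTAZ cells 2, and 1 rose without tumour 4 or shTAZ cells 1. With all libraries the risers were Krt14, given with the skin genes further on, and Lcn2, lipocalin. Lcn2 rose from 15.0 to 50.0 CPM in cultures to 174 to 2707 in tumours (5.20, SE 0.87).

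Genes tied to epithelial-mesenchymal transition did not all rise. Of 11 tested 7 rose and 2 fell, against 16.6% of all genes called higher and 15.6% called lower. The falls were thus near the share of all genes. Tgfbi, a matrix protein induced by TGF-beta, went from 0.417 to 0.601 CPM in cultures to 154 to 454 in tumours (9.04, SE 0.54), and Mmp14, a membrane metalloproteinase, rose by 2.89, while Vim, vimentin of mesenchymal cells, fell from 5289 to 9127 CPM in cultures to 3187 to 4637 in tumours (-1.04, SE 0.23). The risers are also made by stroma and macrophages, and the part of those cells was not tested.

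Further falls among well-counted genes included Msln, mesothelin of the cell surface, at 29.6, 50.5, 26.8 and 57.7 CPM in tumours and 552, 362 and 356 in cultures (-3.36, SE 0.30, adjusted p = 3.17e-06). Lamb3, a chain of the basement membrane laminin that anchors epithelia, was at 22.9, 6.06, 15.8 and 34.5 CPM and at 340.0, 217 and 95.4 (-3.44, SE 0.49). Snx9, a sorting nexin of endocytosis (-3.84), Xpo5, the exporter of microRNA precursors (-3.84), and Rnd1, a small GTPase (-3.17), fell too, each with tumours and cultures apart.

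Stress genes moved in both directions or not at all. The counts below stand against 16.6% of all genes called higher and 15.6% called lower. Of 18 immediate early genes 5 rose and 1 fell (3 and 0 with FG tumours only). The abundant Junb (0.61), Jund (-0.29) and Ier2 (-0.31) did not pass. Of 19 heat shock and folding genes 4 rose and 6 fell (2 and 1 with FG tumours only). Calr, a chaperone of the endoplasmic reticulum, rose by 0.85. Of 13 genes of TNF and NF-kB signalling 3 rose and 2 fell, among the latter Nfkb2, a subunit of NF-kB, at 271 to 297 CPM in tumours and 524 to 598 in cultures. Of 12 genes of the NRF2 and glutathione list 1 rose and 2 fell, with Gclm, a subunit of the enzyme that starts glutathione synthesis, at -1.44. The falls in the immediate early, TNF and NF-kB and NRF2 lists rested on few libraries. Of the immediate early genes 3 fell without shTAZ cells 1 and 0 without shTAZ cells 2. Of the TNF and NF-kB genes 1 fell without tumour 2, 3 or 4 or shTAZ cells 2, and of the NRF2 genes 1 without tumour 2, 3 or 4.

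Skin genes stood out in tumours 3 and 4. The 30 genes of the epidermal keratinization list held 0.0190% and 0.00784% of counts in shTAZ tumours 1 and 2 and 0.605% and 0.518% in tumours 3 and 4 (exact 95% limits of the last, 0.509% and 0.527%, counting error only), against 0.00372% to 0.0624% in shC tumours. Only 3 of these genes were in both tables, and they held 0.0159%, 0.00673%, 0.327% and 0.278% of counts in shTAZ tumours 1 to 4 and 0.00490% to 0.0115% in shTAZ cells. Altogether 81 genes were at least 10 times higher in both of tumours 3 and 4 than in both of tumours 1 and 2, of which 20 were in that list, while 3 genes were so in reverse. Krt10, a keratin of the upper epidermis, was at 9.45, 14.5, 1759.5 and 711 CPM in tumours and 15.2, 10.4 and 29.5 in cultures, and Sbsn, a suprabasal protein, at 7.62, 3.63, 319 and 364 and at 4.29, 0.417 and 9.14.

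The test called Krt10 (5.02, SE 1.45, adjusted p = 0.0192), Krt14 (3.83), a basal keratin, and Sbsn (4.98) higher, although tumour 2 lay within the range of the cultures for each of them, and tumour 1 exceeded every culture for Krt14 alone. With FG tumours only 0 of the 3 epidermal genes tested passed, and their median was 0.20, while 0 of 3 passed without shTAZ cells 1 and 1 of 3 without shTAZ cells 2. Lgals7, a galectin of stratified epithelia, was at 174, 52.9, 1664 and 1638 CPM in tumours and 12.9, 7.52 and 3.61 in cultures, so all tumours exceeded the cultures but by unlike amounts. Krt1, Lor and Krt5, listed in the tumour table alone, were at 523, 599 and 446 CPM in tumour 3 and at or below 6.19 in tumours 1 and 2. How skin came into 2 libraries was not tested. Only 4 of the 81 genes were among those tested.

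**Figure D4:**
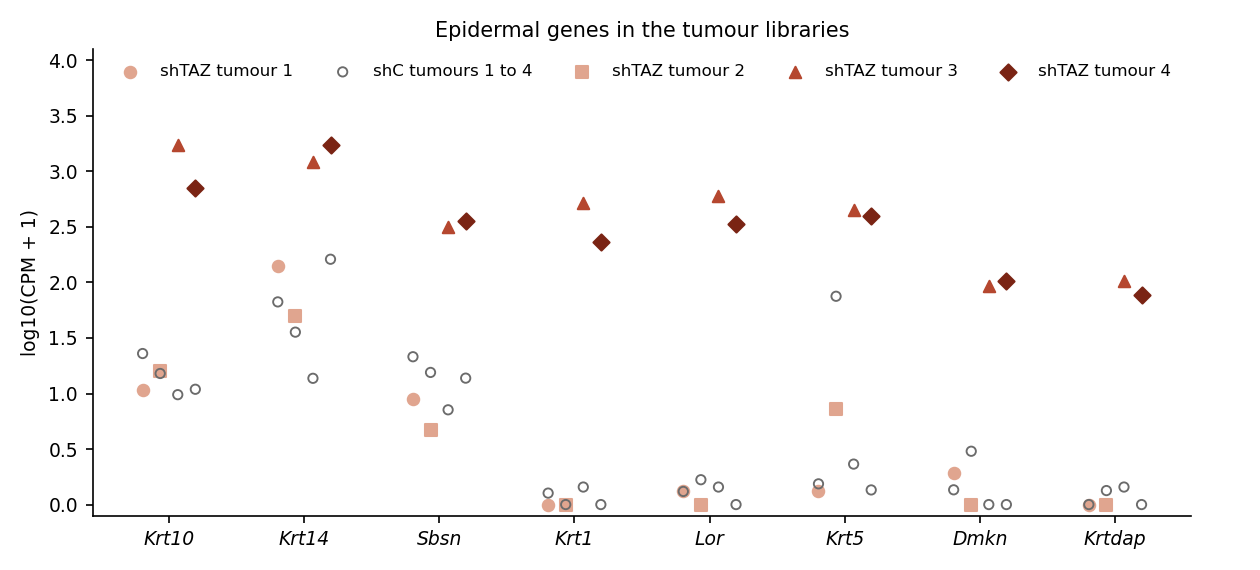
Levels of 8 epidermal genes (x axis) as log10(CPM + 1) (y axis) in the 4 shTAZ tumours (filled symbols) and the 4 shC tumours (open circles). Tumours 3 and 4 lie above tumours 1 and 2 for every gene shown, and the 4 shC tumours lie below tumours 3 and 4.

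Some very large changes sat in genes that every cell uses. Rps20, a ribosomal protein, was at 2610.0, 2474, 2668 and 2632 CPM in tumours and 3.81, 2.92 and 3.13 in cultures (9.63, SE 0.30). Arpp19, a phosphatase inhibitor of mitosis, was at 0 to 1.22 CPM in tumours and 267 to 333 in cultures (-8.43), Wwc1, a Hippo scaffold also called KIBRA, at 0.609 to 2.74 and 235 to 239.5 (-7.27), and Ubb, a polyubiquitin gene, at 1.61 to 9.55 and 400.3 to 649 (-6.54). Manf, a secreted stress factor, had 2 counts in the 4 tumours together. The control line showed the like, with log2 fold changes from shC cells to shC tumours of 10.66 for Rps20 and -7.67 for Wwc1. Since table and annotation coincide with tissue, these changes cannot be told apart from a difference in how the 2 tables were counted. Genes with near-identical copies, such as Gapdh, ribosomal protein and MHC genes, are uncertain for the same reason. Gapdh read 1346, 14.5, 27.4 and 743 CPM in tumours and 7.70 to 21.9 in cultures. Its spread among the tumours lay within a single table, and the cause of that spread was not tested.

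A gene absent from one table was not tested, and its absence is no 0. The tumour table alone listed 2264 genes, and the highest of them in shTAZ tumours were Ctsl, a lysosomal protease, at 782 ± 243 CPM (SD, n = 4), and Uqcrq, a subunit of respiratory complex III that all cells need, at 487 ± 99.0 CPM. Fcgr3, an Fc receptor of myeloid cells, stood at 224 ± 59.5 CPM and Pirb, an inhibitory receptor of the same cells, at 224 ± 75.3 CPM. The tumour table alone also held 25 of the 30 epidermal genes.

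The change from culture to tumour was set beside that of the control line. The shC and shTAZ comparisons share no library, and in a fit of all 14 libraries the median log2 fold changes were, in shTAZ and shC, 7.30 and 8.16 for macrophage genes, 1.83 and 2.13 for MHC class I, -1.81 and -1.98 for the amino acid response list, -1.75 and -2.31 for mitosis and -0.65 and -0.44 for YAP and TAZ targets. Furthest apart of all lists were the epidermal genes (5.04 and 0.01, 3 genes), which stood out in shTAZ tumours 3 and 4, and the urothelium and smooth muscle genes (4.69 and 8.27, 6 genes), which held 0.777% of counts in shC tumour 2 and at most 0.0510% in any other tumour. Skeletal muscle genes (2.89 and 4.36, 4 genes) came next. The 8 muscle genes in both tables held 0.195% of counts in the highest shC tumour, where the shC median was 0.0103%. They held at most 0.0116% in shTAZ tumours. Furthest apart among the lists plotted were complement (6.85 and 7.96), endothelial (6.20 and 7.29) and checkpoint genes (3.87 and 4.95). Of 9586 genes tested for a difference between both changes, 0 passed an adjusted p of 0.05 in edgeR and 0 in DESeq2. An unadjusted p under 0.05 was met by 234 (2.44%) and 266, where chance alone would give about 479. The smallest adjusted p was 0.563, for Slc45a4, a sugar transporter, which averaged 36.5 CPM in shTAZ tumours and 37.5 in shC tumours but 3.26 in shTAZ cells and 0.822 in shC cells. No gene was thus shown to change between culture and tumour in a manner particular to TAZ-depleted material. Same-numbered cultures of both lines shared the first part of their code. Culture 3 stood apart in shC too (SD of log2 differences 0.698 and 0.645, against 0.287 between shC cells 1 and 2). The main fit had no term for these sets of cultures, so any spread that a set shared counted as noise. A test that missed its threshold does not show that the changes were equal. In simulated counts, the edgeR interaction test called 0 of 99 genes given a log2 difference of 1 and 45 of 99 given 2. A difference of the size seen for Wwtr1 (0.98) could thus be missed.

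**Figure D5:**
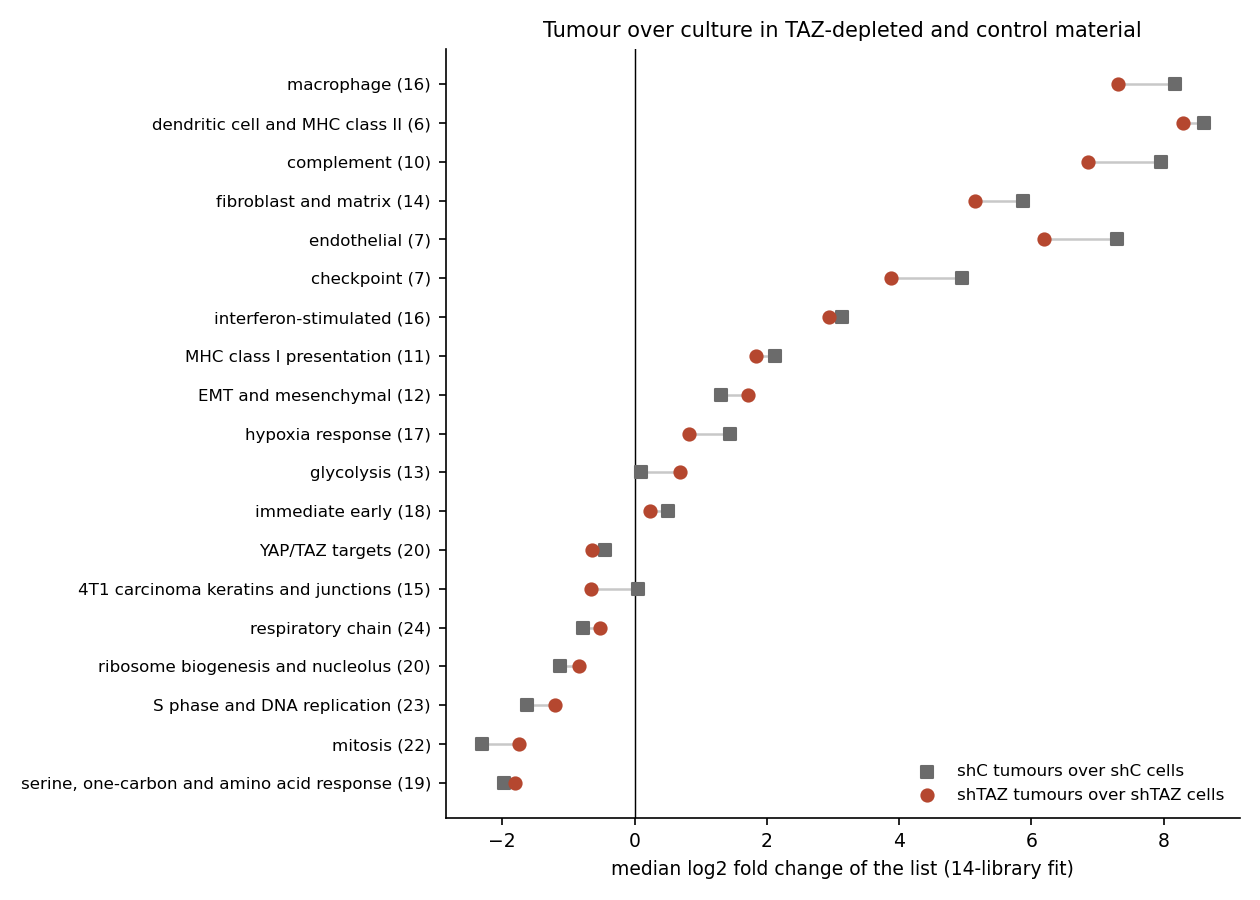
Median log2 fold change of tumours over cells (x axis, fit of all 14 libraries) of 19 gene lists (y axis, genes tested in brackets) in shTAZ (red circles) and shC (grey squares). The medians run from 8.29 and 8.60 for the dendritic cell and MHC class II list down to -1.81 and -1.98 for the amino acid response list and -1.75 and -2.31 for mitosis.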

How the data were processed

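RNA of 4 shTAZ tumours and 3 shTAZ cultures (with 4 and 3 shC libraries beside them) had been sequenced with a bulk 3′ MARS-seq protocol. The authors trimmed reads with cutadapt, mapped them to mm10 with STAR and counted them with HTSeq, and the deposited raw counts per gene were used as they are. The annotation release is not given in the sources used here. The same tables hold 34 normalized, log-scale and batch-corrected columns and the authors' fold changes and p values, none of which was used. Older symbols were mapped to newer ones (598 in the tumour table, 33 in the cells table) and the tables were joined on symbol.

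edgeR 4.0.16 in R 4.3.3 (filterByExpr, TMM, quasi-likelihood test, Benjamini-Hochberg adjustment over all genes tested, threshold 0.05) compared tumours with cultures in a fit of these 7 libraries, and an interaction term over 14 libraries compared this change with that of shC. CPM are TMM-scaled, and an SE is that of the log2 fold change. The code was tested on simulated data. DESeq2 1.42.0, a surrogate variable (sva 3.50.0), other scalings and filters, and fits without a library were tried.

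The comparison, the gene lists and the naming rule were chosen with earlier results of these data known. The rule named, per direction, the 10 largest changes among called genes with at least 10 counts in every library and the 10 most abundant called genes with a log2 change of at least 3, up to 4 members per list by abundance, the Hippo genes and the genes the study follows, the 5 smallest interaction p values per direction, and the 10 most abundant genes of the tumour table alone. The latter were given as levels with no test. Some genes that the rule names are not reported here. Genes outside the rule (Adm, Btg2, Ccnd2, Cdkn1a, Flt1, Ifit1, Ifit3, Igfbp3, Psat1, Tap1) were chosen after their values were seen.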

Additional observations from a re-analysis of the deposited data

Results flagged for a closer look

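Of the 117 genes named in the report and tested, 7 had a shTAZ tumour whose level stood apart from the other 3 by Dixon's 95% critical value for 4 samples, which chance meets in about 5% of groups, a rate close to the one seen here. Tumour 2 was high for the mitotic genes Ube2c (306 CPM) and Plk1 (195 CPM), and tumour 3 was high for the class II chains H2-Ab1 (3151 CPM) and H2-Eb1 (2717 CPM). Tumour 1 was low for Atp5b (1077 CPM) and had 0.609 CPM of Manf, which had no count in the other tumours. Tumour 4 was low for Lck (8.31 CPM).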

How the results depend on the processing

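The number of genes called between shTAZ tumours and shTAZ cells was 2840 and stayed within 1.5 times of that under DESeq2, other scalings, other filters, the replicate block (1956) and 1 surrogate variable. It was 1428 with FG tumours only and 1766 with FM tumours only, fits that rest on fewer samples, and ranged from 2068 to 3032 when 1 library was left out. The log2 fold change of Wwtr1 (1.25) kept its sign under all alternatives but lost its call with the replicate block (1.07, adjusted p = 0.0800), with FG tumours only (1.11, adjusted p = 0.131) and with FM tumours only (1.39, adjusted p = 0.0509), and ranged from 1.04 to 1.45 when 1 library was left out. The Wwtr1 interaction ranged from 0.77 to 1.27 in such fits, and no alternative called any gene in the interaction. Same-numbered tumours and cultures shared only a number (correlations of their deviations 0.04, 0.04 and 0.05), and the block took 8 of the 95 calls among genes named. Of the genes named, Krt10 reversed with FG tumours only (-0.65), Ccn2 with FG tumours only (0.080) or without shTAZ cells 2, Cxcl1 with the block (-1.61), FM tumours only (-1.71), without tumour 1 or without shTAZ cells 1, Krt8 without shTAZ cells 3 and Pkm without shTAZ cells 1. When 1 library was left out, Ccn2 ranged from -0.52 to 0.30, Cxcl1 from -2.24 to 0.60, Krt8 from -0.21 to 0.75 and Pkm from -0.41 to 0.32. The cause was not tested. At 1659736 counts in the shallowest tumour, genes below about 1 CPM rest on very few counts.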
